A study of Homo sapiens with 54 samples.

Results

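The baseline transcriptomes of 2 lung cancer cell lines were compared, NCI-H23 (a line whose growth depends on *TRA2A*) and A549 (a line whose growth does not). The comparison used the control libraries alone, 3 NCI-H23 Control KD and 3 A549 Control KD, which are 6 of the 54 samples of the series. Both lines were derived from lung adenocarcinomas. All 6 cultures carried Zim3-dCas9, a nuclease-dead Cas9 fused to a transcriptional repressor domain (CRISPRi), stably expressed in a population sorted for the linked mCherry marker, and all received control guides in place of guides to *TRA2A* or *TRA2B*. Cells were collected 5 days after lentiviral transduction. A549 was grown in DMEM and NCI-H23 in RPMI-1640, and the values of each line came in a separate table, so that line, medium and table cannot be told apart. Each line is 1 sorted population, and nothing states that the 3 libraries of a line came from separate transductions, so p measures the spread between libraries, which may be technical.

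*TRA2A* and *TRA2B* are paralogous SR-like proteins that bind GAA-rich sequences in pre-mRNA and promote the inclusion of many of the same exons. They contain an RNA recognition motif between arginine/serine-rich domains and cooperate with the classical SR proteins, whose activity depends on phosphorylation by the CLK and SRPK kinases. The question behind the comparison was how a *TRA2A*-dependent and a *TRA2A*-independent line differ before either paralog is depleted. As background on this much-used line, A549 is known to carry a mutated *KEAP1* and a homozygous deletion of *CDKN2A*. KEAP1 is the adaptor that directs the transcription factor NRF2 (encoded by *NFE2L2*) to degradation, and NRF2 binds antioxidant response elements in the promoters of detoxification and NADPH-producing genes. Genotype was not measured in these libraries.

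A control guide of the study is printed here because all 6 libraries carried guides of this kind, with the PAM as it stands in the genome in capitals.
ROSA26: gagtcgcttctcgattatgggCGG
The ROSA26 guide has 21 bases, of which the 20 next to the PAM matched once, at chr3:9396264-9396283 (−), in an exon of the antisense gene *THUMPD3-AS1*. Which control guides each library received was not stated in the sources used here.

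Abundance was given as TPM, a share of each library per transcript length, which was rescaled here so that the genes of each library sum to 1000000. TPM values hold no record of depth, so the error of a value is the spread of the 3 libraries of its line. The third A549 library stood apart. Its correlation with the other A549 libraries over the genes tested (Pearson, log2 scale) was 0.858 and 0.865 against 0.949 between these, the NCI-H23 libraries had 0.935 to 0.958 among themselves, and pairs from different lines had 0.642 to 0.733. Its scaling factor was 1.212, whereas the other 5 had 0.9042 to 0.9928. Mitochondrially encoded genes made up 18 to 21.56% of the A549 and 23.12 to 31.91% of the NCI-H23 libraries, which did not overlap. The part of these features in the differences below was not tested, and values without the third A549 library stand beside the named genes whose call it changed.

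The lines differed in a large share of their genes. The filter of 1 TPM, to be reached in 3 or more libraries, left 15881 genes, and 4956 were differentially expressed (DEGs), defined as an adjusted p under 0.05 by limma with Benjamini-Hochberg adjustment and an absolute log2 fold change above 1. This is 31.2% of the genes tested, and 2254 (14.2%) were higher and 2702 (17%) lower in NCI-H23. A log2 fold change is given throughout as NCI-H23 minus A549, on the log2(TPM + 0.1) scale after scaling between libraries. Of the DEGs, 1505 differed by more than 8-fold, and 4923 had no overlap between the libraries of the lines, as was so for 9060 of all genes tested (57.0%). Without the third A549 library, and with a filter that 2 libraries can pass, 4445 of the 4956 remained DEGs. When libraries were only rescaled, without a further scaling factor, the median of all genes moved from 0.03 to -0.1.

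**Figure D1:**
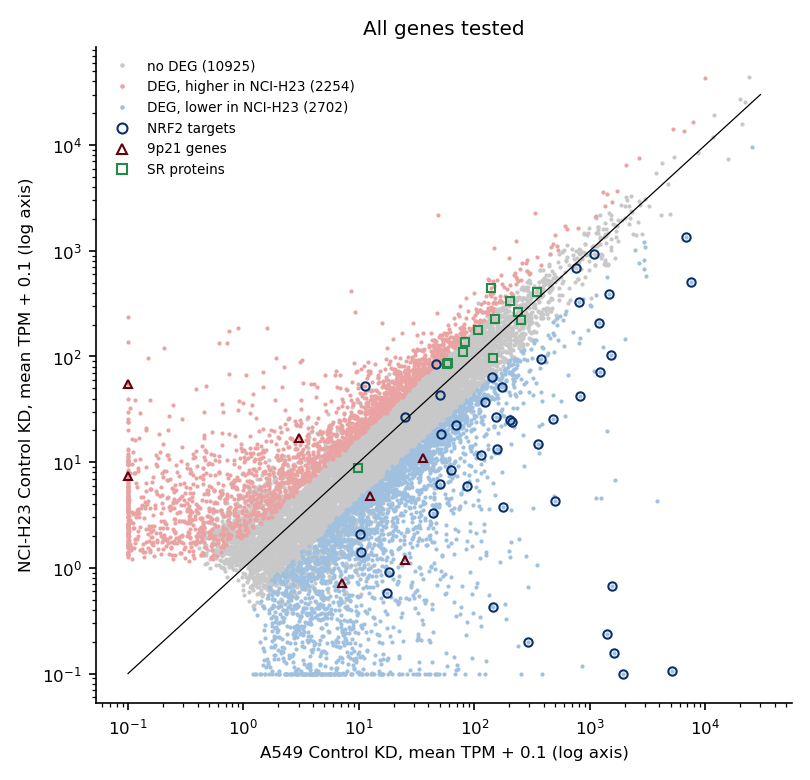
Mean abundance in the 3 NCI-H23 against the 3 A549 control libraries (TPM + 0.1, both axes log) of the 15881 genes tested, with the line of equal abundance, the 2254 DEGs higher in NCI-H23 in red and the 2702 DEGs lower in blue. NRF2 targets (circles) lie mostly below the line, SR proteins (squares) close to it, and 2 of the 9p21 genes (triangles) at the left edge, where A549 is at 0.

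*TRA2A* was higher and *TRA2B* lower in NCI-H23, each by less than 2-fold. *TRA2A* (chr7:23504780-23532041, −) stood at 72.8, 83.2 and 82.2 TPM in A549 and at 107, 112 and 110 TPM in NCI-H23. All NCI-H23 libraries were above all A549 libraries, and the log2 fold change was 0.61 (SE 0.108, adjusted p = 0.00502, limma). *TRA2B* (chr3:185914558-185938103, −) stood at 144, 147 and 144 TPM in A549 and at 84.2, 108 and 98.7 TPM in NCI-H23. Here all NCI-H23 libraries were below all A549 libraries, with a log2 fold change of -0.45 (SE 0.131, adjusted p = 0.0298, limma). The call of *TRA2A* held under every alternative run. That of *TRA2B* did not, since its adjusted p (limma) was 0.106 without the filter on low values, 0.0637 with the replicate number as a block, and between 0.0671 and 0.139 when any library other than the third of A549 was left out, each time with *TRA2B* lower in NCI-H23.

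The balance of the paralogs was therefore computed within each library, where no scaling between libraries enters. TRA2B divided by TRA2A was 1.98, 1.76 and 1.75 in A549 against 0.788, 0.96 and 0.893 in NCI-H23. The major paralog by TPM was thus *TRA2B* in every A549 library and *TRA2A* in every NCI-H23 library, with means of 1.83 ± 0.13 and 0.881 ± 0.0867 (SD, n = 3). The two-sided exact permutation p was 0.1, the smallest that 3 against 3 libraries allow (adjusted p = 0.133 over 8 such tests). The sum of both was 224 ± 6.55 TPM in A549 against 207 ± 14.6 TPM in NCI-H23 (SD, n = 3; exact permutation p = 0.2, adjusted p = 0.229), and the libraries of the lines overlapped. TPM per gene counts transcripts with and without the poison exons that the paper describes in both paralogs, and these were not separated here.

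The same ratio was taken in the other pair of the series, the glioma lines LN229 (*TRA2A*-independent) and LN319 (*TRA2A*-dependent), which expressed active Cas9 and luciferase with control guides (Luc Control KO) and were collected 7 days after transduction. It was 1.91, 2.08 and 2.11 in LN229 and 0.889, 0.784 and 0.79 in LN319. In both pairs the libraries of the dependent line lay below 1 and those of the independent line above 1 (LN319 and LN229, exact permutation p = 0.1, adjusted p = 0.133). The ratio was read in these 4 lines only. From DepMap data and immunoblots of more lines, the paper reports that levels of either paralog, as mRNA or protein, did not clearly separate dependent from independent lines. The quantities behind the ratio differed between the pairs. *TRA2A* was 114 ± 3.55 TPM in LN229 and 111 ± 5.83 TPM in LN319 (SD, n = 3), with overlapping libraries, whereas *TRA2B* was 232 ± 18.9 and 91.1 ± 3.59 TPM. The sum of both was 346 ± 22.5 TPM in LN229 and 202 ± 6.39 TPM in LN319 without overlap, unlike in lung (SD, n = 3; exact permutation p = 0.1, adjusted p = 0.133). In 1 fit of all 4 lines, which are then scaled together, the log2 fold change of *TRA2B* was -1.44 in glioma and -0.38 in lung, and the difference between them was 1.06 (SE 0.159, adjusted p = 0.000236, limma, interaction term), or 0.88 without the third A549 library. On the adjusted p alone, 52.5% of all genes passed this test.

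Of the 14 SR protein genes listed (the 12 *SRSF* genes and both *TRA2* genes), 13 were tested, 1 was a DEG and 12 were not, which is 7.69% against 31.2% of all genes. On the adjusted p alone 7 were higher and 1 was lower in NCI-H23, against backgrounds of 22.5% and 23.8%, and 10 had no overlap, as was so for 57.0% of all genes. Their median log2 fold change was 0.68 against 0.03 for all genes. The DEG was *SRSF5*, a shuttling SR protein, at 165, 186 and 67.3 TPM in A549 against 288, 572 and 462 TPM in NCI-H23. All NCI-H23 libraries were higher, and the third A549 library was the lowest of the 6 (log2 fold change 1.87, SE 0.501, adjusted p = 0.0233, limma), which left 1.30 without that library. *SRSF9* stood at 0.83 on the log2 scale and also passed the adjusted p (0.011, limma), while *SRSF3* and *SRSF2* had log2 fold changes of 0.38 and 0.28 and did not pass. *TRA2B* was the member of the list that was lower on the adjusted p.

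**Figure D2:**
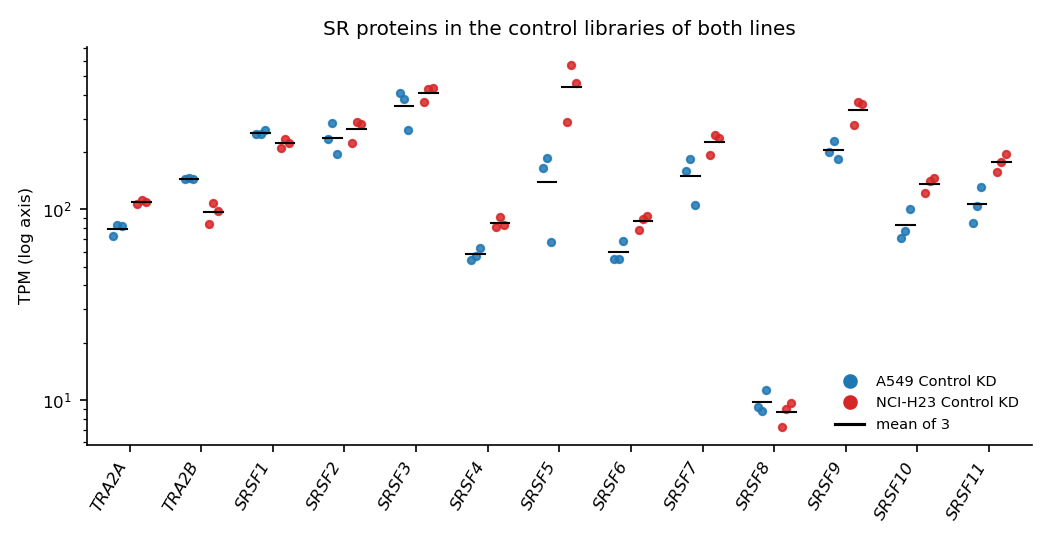
Abundance (TPM, log axis) of *TRA2A*, *TRA2B* and the 11 tested *SRSF* genes in each of the 3 A549 (blue) and 3 NCI-H23 (red) control libraries, with a bar at the mean of each line. *TRA2A* is at 72.8 to 83.2 TPM in A549 against 107 to 112 TPM in NCI-H23, *TRA2B* at 144 to 147 and 84.2 to 108 TPM, and *SRSF5* at 67.3 to 186 and 288 to 572 TPM.

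Among 7 tested kinases of SR proteins 1 was a DEG (14.3% against 31.2% of all genes). *CLK2*, a nuclear kinase that releases SR proteins from speckles, was at 33.6, 42.1 and 23.3 TPM in A549 against 55.9, 83.6 and 79.6 TPM in NCI-H23, higher in every NCI-H23 library (log2 fold change 1.30, adjusted p = 0.0149, limma). Without the third A549 library its log2 fold change was 0.96 and it was no longer a DEG. *SRPK1*, the cytoplasmic kinase that promotes nuclear import of SR proteins, was at 36.4, 36.9 and 53.8 TPM against 71.6, 69.4 and 74.3 TPM. It did not overlap between the lines either, and its log2 fold change of 0.92 passed the adjusted p (0.00113, limma) and not the fold threshold. *SRPK2* and *CLK3* had log2 fold changes of -0.31 and 0.22 and passed neither.

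The 4 genes listed as RT-PCR targets of the study were read for their total abundance only, since TPM per gene does not show exon inclusion. The paper's text describes a TRA2-responsive splicing event in *CHEK1*, *OFD1* and *CNTRL* and does not name *CEP192*. *CHEK1*, the checkpoint kinase, was at 27.8, 24.2 and 26.5 TPM in A549 against 48.6, 42.5 and 42.6 TPM in NCI-H23 without overlap (log2 fold change 0.90, adjusted p = 0.00444, limma). *CEP192*, a scaffold of centrosome maturation, was at 8.0, 7.46 and 17.3 TPM against 18.8, 22.1 and 22.6 TPM. It was the DEG of the group (log2 fold change 1.19, adjusted p = 0.0107, limma), although the third A549 library came close to NCI-H23. *CNTRL* stood at 0.70 (adjusted p = 0.0382, limma) with overlapping libraries, and *OFD1* at -0.50 (adjusted p = 0.243, limma), where the third A549 library had 41.6 TPM and the other 5 between 13.1 and 15.7 TPM. Without that library *OFD1* stood at -0.13 (adjusted p = 0.306, limma).

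Splicing regulators of restricted tissue distribution differed in both directions. Of 32 listed 18 were tested, 4 were DEGs higher and 6 DEGs lower in NCI-H23 (55.6% against 31.2% of all genes), and the median log2 fold change was 0.09 (-0.04 with rescaling only). These were 8 DEGs and a median of -0.02 without the third A549 library. *RBM47*, an RNA-binding protein of epithelia, was at 32.4, 29.2 and 85.2 TPM in A549 against 3.6, 4.33 and 3.02 TPM in NCI-H23. It was lower in every NCI-H23 library, with a log2 fold change of -3.41 (adjusted p = 0.000578, limma). *MBNL1*, a regulator of developmental splicing switches, was at 46.5, 51.2 and 96.4 TPM against 23.2, 24.1 and 23.9 TPM and also lower throughout, with -1.23. *ESRP2*, an epithelial splicing regulator, went the other way from a low level, at 0.0204, 0.196 and 0.227 TPM in A549 against 1.38, 2.09 and 1.38 TPM in NCI-H23 (log2 fold change 3.02, adjusted p = 0.00476, limma), and its paralog *ESRP1* was under the filter in both lines. *RBM38*, an RNA-binding protein, was higher by 1.30, and *PTBP1*, the repressor of neuronal exons, by 0.69, which did not reach the fold threshold.

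Markers of lung and epithelial identity were mostly lower in NCI-H23, and the surfactant genes *SFTPA1*, *SFTPA2*, *SFTPB* and *SFTPC* were near 0 in both lines. Of 18 alveolar type II genes 8 were tested, and 6 of these were DEGs, all lower in NCI-H23 (17% of all genes were). *FOXA2*, a forkhead factor of endoderm, was at 18.5, 22.9 and 20.4 TPM in A549 against 0.364, 0.554 and 0.266 TPM in NCI-H23. The gap spared no library, with a log2 fold change of -5.30 (SE 0.312, adjusted p = 8.23e-05, limma). *LPCAT1*, which makes surfactant lipid, was at 76.2, 70.5 and 99.9 TPM against 9.66, 11.8 and 14 TPM, and was lower by -2.65 without overlap. *FOXA1* and the lipid transporter gene *ABCA3* were lower by -2.79 and -2.30, while *ETV5* stood at 0.08. *NAPSA*, another gene of the list, passed the filter and was no DEG. The surfactant genes *SFTPA1*, *SFTPA2*, *SFTPB* and *SFTPC* were at 0 to 0.274 TPM in all 6 libraries. *NKX2-1*, the lineage factor of the distal lung, was listed at 0 in the 3 A549 libraries and at 0.66, 0.711 and 0.94 TPM in NCI-H23, under the filter.

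Of 26 tested epithelial genes 14 were DEGs lower and 2 DEGs higher in NCI-H23 (17% and 14.2% of all genes), and their summed abundance was about 10800 TPM in each A549 library and 2330 to 2400 TPM in NCI-H23. *KRT7*, a keratin of simple epithelia, was at 3850, 4040 and 3500 TPM in A549 against 3.53, 4.71 and 4.21 TPM in NCI-H23. It was lower in every NCI-H23 library, with a log2 fold change of -9.68 (SE 0.166, adjusted p = 1.96e-06, limma). *ELF3*, an epithelial ETS factor, was lower by -9.84, *LAMB3*, a laminin chain of the basement membrane, by -7.15, and *KRT19* by -5.14. *CDH1*, which encodes E-cadherin and was chosen after its values were seen, was at 21.4, 20.4 and 27.2 TPM against 2.05, 1.85 and 2.2 TPM without overlap (log2 fold change -3.30). *MUC1*, a membrane mucin, was the exception with *SPINT1*, a serine protease inhibitor. It was at 10.7, 9.27 and 23.9 TPM in A549 against 63.1, 73.8 and 64.8 TPM in NCI-H23, higher in every NCI-H23 library (log2 fold change 2.46, adjusted p = 0.000792, limma), and *SPINT1* was higher by 3.52. *CLDN1*, *PKP3* and *DSP* had log2 fold changes of 0.88, -0.07 and -0.44 and were no DEGs.

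The mesenchymal list did not move in the opposite direction. Of 28 tested genes 15 were DEGs lower and 7 DEGs higher in NCI-H23 (17% and 14.2% of all genes), with a median of -1.18, the same as that of the epithelial list. *TGFBI*, a matrix protein induced by TGF-beta, was at 1070, 1030 and 1320 TPM in A549 against 4, 4.28 and 5.1 TPM in NCI-H23. No library overlapped, and the log2 fold change was -7.83 (SE 0.109, adjusted p = 1.96e-06, limma). The calcium-binding protein gene *S100A4* was lower by -7.78, *FN1* (fibronectin) by -7.72 and the collagen gene *COL5A1* by -8.02. *TWIST1*, a basic helix-loop-helix factor of mesenchyme, was higher, at 1.84, 1.7 and 1.37 TPM against 17.7, 20.4 and 22.6 TPM. It was higher in every NCI-H23 library (log2 fold change 3.68, SE 0.252, adjusted p = 0.000133, limma), and so were *CDH11* by 6.25, *PRRX1* by 3.78 and *COL3A1* by 3.48. *VIM* (vimentin) was abundant in both lines, at 1100 to 1290 TPM in A549 against 1670 to 1690 TPM in NCI-H23, and its log2 fold change of 0.66 passed the adjusted p (0.00896, limma) without being a DEG, while *ZEB1* had 0.02.

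Neuroendocrine genes split evenly, with 4 DEGs higher and 4 lower in NCI-H23 among 13 tested of 28 (61.5% against 31.2% of all genes). *SCG2* (secretogranin II) was at 0.545, 0.52 and 1.36 TPM in A549 against 33.6, 37.8 and 41.5 TPM in NCI-H23, without overlap (log2 fold change 5.62, adjusted p = 6.33e-05, limma). *UCHL1*, a deubiquitinase of neurons, was lower, at 638, 711 and 395 TPM against 175, 243 and 243 TPM, by -1.24. The defining factors *NEUROD1* and *INSM1* were at 0 to 0.037 TPM in all 6 libraries. Of 16 squamous and basal genes 5 were tested and 2 were DEGs, both lower in NCI-H23 (17% of all genes were lower). These were *TRIM29* (-6.26) and *KRT6A*, which was at 3.14, 3.79 and 3.45 TPM in A549 and listed at 0 in all NCI-H23 libraries.

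Markers of other cells that a culture should not hold were low in sum, although some passed the filter. None of 6 endothelial genes passed the filter. Of 12 immune genes 4 did, and 2 of these were DEGs (50% against 31.2% of all genes), *CD8A* higher and *CD68* lower in NCI-H23. *PTPRC* (CD45) was at 0 to 0.24 TPM in all 6 libraries, and *CD3D* was listed at 0 in each of them. The summed immune list was at 33.9 to 49.4 TPM in A549 against 18.9 to 29.5 TPM in NCI-H23. The 3 fibroblast genes that passed, *COL1A1*, *COL3A1* and *LUM*, were DEGs higher in NCI-H23 (14.2% of all genes), with a summed list of 9.02 to 22 TPM against 37.6 to 41.6 TPM, and *DCN* (decorin) was at 0.0197 to 0.0997 TPM in the NCI-H23 libraries.

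Nearly all NRF2 targets were lower in NCI-H23. The list of 44 genes, all tested, holds the regulator genes *NFE2L2* and *KEAP1* beside the targets, and all counts of the list include them. Of the 44 genes 38 were DEGs lower and 2, *NFE2L2* among them, DEGs higher in NCI-H23 (17% and 14.2% of all genes). No overlap was seen for 41 (57.0% of all genes), and the median log2 fold change was -2.98 (-3.09 without the third A549 library). Their summed abundance was 34700 to 41600 TPM in A549 against 4760 to 5600 TPM in NCI-H23. Much of what is known of these targets was learned in lung cancer cells, so that the list is not independent of such lines. *ALDH1A1*, the retinal dehydrogenase (chr9:72900671-73080442), was at 5330, 5810 and 4160 TPM in A549 and at 0.0173, 0 and 0 TPM in NCI-H23. It was thus near 0 in every NCI-H23 library, and its log2 fold change of -15.47 (adjusted p = 1.96e-06, limma) depended on the pseudocount, being -12.23 with a pseudocount of 1.

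Aldo-keto reductases, which reduce carbonyls with NADPH, had the same pattern. *AKR1C2* was at 2100, 2090 and 1580 TPM in A549 and listed at 0 in all NCI-H23 libraries. *AKR1C3* was at 1420, 1460 and 1340 TPM against 0, 0.223 and 0.187 TPM, and *AKR1B10* at 1500, 1410 and 1970 TPM against 0, 0.143 and 0.0285 TPM. None of them overlapped, and the adjusted p values were 1.96e-06, 2.01e-05 and 8.05e-06 (limma). The *AKR1C* genes are near-identical neighbours on chromosome 10 between which reads can be split, so their sum was taken as well, which was 3630 ± 311 TPM in A549 against 0.234 ± 0.222 TPM in NCI-H23 (SD, n = 3). *ALDH3A1*, an aldehyde dehydrogenase, was lower by -11.20.

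The NADPH-producing enzymes of the list were lower without being lost; these and the other NRF2 targets of this and the next paragraph, apart from those higher in NCI-H23, were chosen after their values were seen. *PGD*, a dehydrogenase of the pentose phosphate pathway, was at 770, 716 and 990 TPM in A549 against 39.3, 44.8 and 42.1 TPM in NCI-H23. The libraries of a line lay close together and far from the other line (log2 fold change -4.14, SE 0.0958, adjusted p = 5.89e-06, limma). *ME1* (malic enzyme) was lower by -3.58 and *TKT* (transketolase) by -2.40. *SLC7A11*, the cystine importer, was at 58.5, 61.3 and 141 TPM against 5.61, 5.89 and 5.86 TPM, lower throughout by -3.63. *GCLM*, the modifier subunit of glutathione synthesis, was lower by -1.50 and *NQO1*, the quinone reductase often read as a marker of NRF2, by -1.77, from 1540, 1630 and 1220 TPM to 353, 416 and 391 TPM. Ferritin followed, with *FTL* at 7980, 8560 and 5860 TPM against 490, 506 and 531 TPM (log2 fold change -3.72, adjusted p = 0.000146, limma) and *FTH1* lower by -2.19.

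The regulators themselves were not among the DEGs lower in NCI-H23. *NFE2L2* was at 47.3, 41.5 and 49.1 TPM in A549 against 77.3, 82.6 and 94.9 TPM in NCI-H23, higher in every NCI-H23 library (log2 fold change 1.02, SE 0.122, adjusted p = 0.001, limma). Without the third A549 library it stood at 0.96 and was not a DEG. *KEAP1* was at 48.7, 48.4 and 54.1 TPM against 43.6, 44.1 and 41.4 TPM, the 3 NCI-H23 values being the lowest, and after scaling its log2 fold change was -0.09 (adjusted p = 0.515, limma). *GSTM3*, a glutathione transferase, was the other DEG higher in NCI-H23, at 12.4, 13.7 and 7.26 TPM against 46.1, 61.7 and 48.9 TPM without overlap (log2 fold change 2.40, adjusted p = 0.00175, limma). *TXN* and *PRDX1*, a thioredoxin and a peroxiredoxin, had log2 fold changes of 0.05 and -0.04 and overlapped between the lines. They stood at -0.36 and -0.42 without the third A549 library and passed the adjusted p (0.0355 and 0.0148, limma).

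Promoters of the list were searched for the core of the antioxidant response element, TGACNNNGC, on both strands of the 250 bases before the RefSeq start site (GRCh38). It was found in 8 of the 32 promoters that could be matched to the 44 genes (25%), against 3013 of 27305 RefSeq promoters (11%), 1235 of 10205 promoters of genes tested (12.1%) and 200 of 1776 promoters of DEGs lower in NCI-H23 (11.3%). Within the list, the motif was in 7 of 27 promoters of DEGs lower in NCI-H23 (25.9%) and in 1 of the 5 others (20%). That other promoter was of *FECH*, which was no DEG (log2 fold change 0.26). A match is a description of letters and not a bound site, and a link of the motif to abundance was not tested. The windows of the 7 DEGs with a match are shown because they place the element beside the values above, read along the gene with the motif in capitals.
GPX2: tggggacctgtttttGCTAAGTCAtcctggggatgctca
CYP4F11: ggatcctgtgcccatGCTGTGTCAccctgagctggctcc
PGD: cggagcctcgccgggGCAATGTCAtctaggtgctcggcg
ME1: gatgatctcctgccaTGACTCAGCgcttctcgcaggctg
GCLM: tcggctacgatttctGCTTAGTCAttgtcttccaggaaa
TXNRD1: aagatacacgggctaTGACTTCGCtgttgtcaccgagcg
CBR1: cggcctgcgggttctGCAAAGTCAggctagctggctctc
The windows lie at chr14:64942844-64942882 (−) for *GPX2*, chr19:15935000-15935038 (−) for *CYP4F11*, chr1:10398848-10398886 (+) for *PGD*, chr6:83431165-83431203 (−) for *ME1*, chr1:93909441-93909479 (−) for *GCLM*, chr12:104215665-104215703 (+) for *TXNRD1* and chr21:36069850-36069888 (+) for *CBR1*. The motif ended 25 bases before the start site in *GCLM* and 192 bases before it in *PGD*, with the others between. The 7 genes ranged from *GPX2*, a glutathione peroxidase at 158, 160 and 120 TPM in A549 against 0, 0.327 and 0.655 TPM in NCI-H23 (log2 fold change -8.75), to *TXNRD1*, the thioredoxin reductase (-1.16), and *CBR1*, a carbonyl reductase (-1.03).

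**Figure D3:**
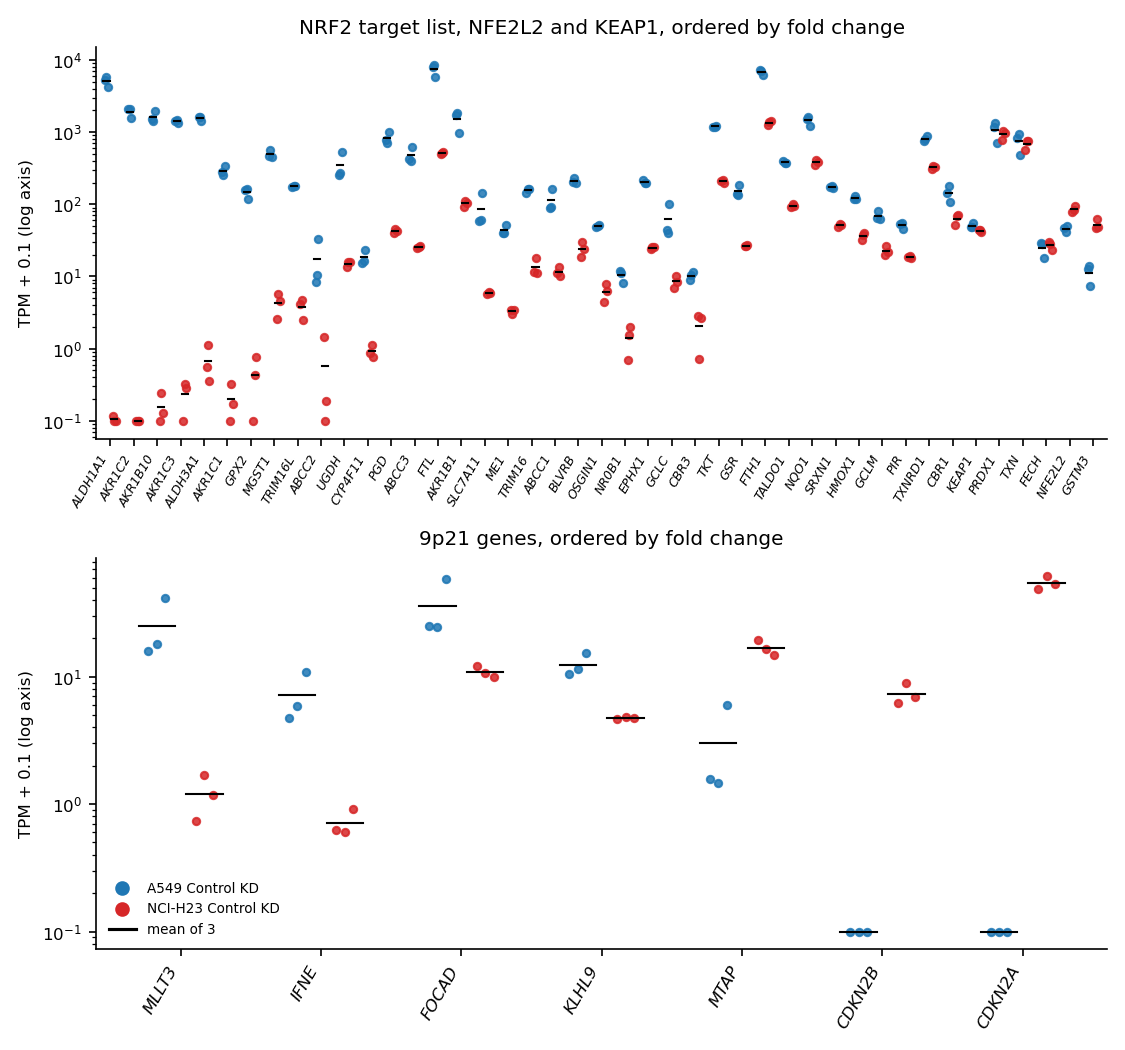
Abundance (TPM + 0.1, log axis) of the NRF2 list with *NFE2L2* and *KEAP1*, less 1 gene that is not shown (upper panel), and of the tested 9p21 genes (lower panel) in each of the 3 A549 (blue) and 3 NCI-H23 (red) control libraries, ordered by fold change, with a bar at the mean. *PGD* is at 716 to 990 TPM in A549 against 39.3 to 44.8 TPM in NCI-H23, *KEAP1* at 48.4 to 54.1 and 41.4 to 44.1 TPM, and *CDKN2A* at 0 in A549 and 48.6 to 62 TPM in NCI-H23.

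Genes of 9p21 differed in both directions, with all 7 tested of 12 listed being DEGs (31.2% of all genes were). *CDKN2A* (chr9:21967752-21995301, −), which encodes the CDK4/6 inhibitor p16 and the MDM2 inhibitor ARF, was listed at 0 in all 3 A549 libraries and was at 48.6, 62 and 53 TPM in NCI-H23. *CDKN2B*, its neighbour and also a CDK4/6 inhibitor, was likewise listed at 0 in A549 and at 6.16, 8.82 and 6.77 TPM in NCI-H23 (adjusted p = 7.8e-05, limma). *MTAP*, the methionine salvage enzyme next to them, was at 1.47, 1.36 and 5.89 TPM in A549 against 19.3, 16.3 and 14.8 TPM in NCI-H23, higher in every NCI-H23 library and not at 0 in A549 (log2 fold change 2.95, adjusted p = 0.0038, limma). The other 4 tested genes of the list, all further from *CDKN2A* than *MTAP* on the same side, were DEGs lower in NCI-H23. *IFNE* had -3.14, *KLHL9* -1.23, *FOCAD* -1.47 and *MLLT3*, a subunit of the super elongation complex, -4.21, from 15.8, 17.9 and 41.4 TPM to 0.638, 1.58 and 1.07 TPM. Of the 21 tested genes within 5 Mb of *CDKN2A*, 2 were DEGs higher and 13 DEGs lower (14.2% and 17% of all genes), with a median of -1.31.

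The regulators of G1 differed by paralog. Of 17 tested 5 were DEGs higher and 3 DEGs lower in NCI-H23 (14.2% and 17% of all genes), with a median of 0.07 (0.20 without the third A549 library). Among the D-type cyclins, *CCND2* was at 0, 0.0112 and 0 TPM in A549 against 33.7, 31 and 32.7 TPM in NCI-H23, *CCND3* was at 136, 142 and 135 TPM against 42.4, 38.1 and 43.3 TPM, and *CCND1* was at 246 to 441 TPM in A549 against 284 to 302 TPM in NCI-H23. *CCND2* and *CCND3* thus differed without overlap in opposite directions (adjusted p = 1.56e-05 and 0.000333, limma), while *CCND1*, the most abundant of them, overlapped (log2 fold change 0.05). Of their partner kinases, *CDK6* was lower, at 25.8, 27.5 and 59 TPM against 4.85, 3.21 and 3.94 TPM (log2 fold change -2.97, adjusted p = 0.000545, limma), and *CDK4* had 0.64. *CDK2* was at 51, 45.1 and 46.5 TPM against 104, 138 and 107 TPM, higher in every NCI-H23 library by 1.41. The CDK4/6 inhibitor gene *CDKN2C* was lower by -1.52, *E2F2* and *E2F3* were higher by 1.87 and 1.18, and *E2F1* stood at 0.07.

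Among proliferation genes the DEGs were mostly higher in NCI-H23, while DEGs of either direction were a smaller share than among all genes. Of 43 S phase genes 10 were DEGs, all higher (23.3% against 14.2% of all genes in that direction), and on the adjusted p alone 23 were higher and 2 lower, with a median of 0.64. *RAD51AP1* was higher by 1.68, *CDCA7* by 1.58 and *RPA2* by 1.47, while *PCNA* had -0.38 and did not pass (-0.62 and adjusted p = 0.00417, limma, without the third A549 library). Of 54 G2/M genes 13 were DEGs higher and 1 lower (25.9% in either direction against 31.2% of all genes), with a median of 0.35. *UBE2C*, the ubiquitin-conjugating enzyme of the anaphase-promoting complex, was at 145, 200 and 67.1 TPM in A549 against 301, 461 and 417 TPM in NCI-H23. It was higher in every NCI-H23 library (log2 fold change 1.77, adjusted p = 0.0231, limma), with the lowest value in the third A549 library. *PSRC1* was higher by 2.47, *NDC80* by 1.79 and *KIF2C*, a microtubule depolymerase, by 1.74. *ECT2*, a guanine nucleotide exchange factor of cytokinesis, was the gene that was lower, at 76, 89.4 and 117 TPM against 22.2, 24.5 and 27.8 TPM, by -1.77. Without the third A549 library the G2/M list held 8 DEGs in place of 14.

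The *HOX* genes, which encode positional identity, differed in both directions. Of 29 tested 9 were DEGs higher and 9 DEGs lower in NCI-H23 (62.1% against 31.2% of all genes). In the *HOXC* and *HOXD* clusters 3 genes each were DEGs, all higher in NCI-H23, in *HOXB* 1 was higher and 5 were lower, and in *HOXA* 2 were higher and 4 lower. *HOXC10* was at 3.13, 3.31 and 6.23 TPM in A549 against 45.8, 53 and 54.8 TPM in NCI-H23. *HOXB6* was at 38.8, 42.4 and 42 TPM against 1.14, 2.76 and 1.92 TPM. Neither overlapped, and the log2 fold changes were 3.77 (adjusted p = 6.42e-05, limma) and -4.28 (adjusted p = 0.000142, limma). *HOXD9* and *HOXC11* were higher by 4.60 and 3.93, and *HOXA7* and *HOXB5* lower by -4.10 and -3.90, all from low levels in the other line.

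Of 22 tested receptor tyrosine kinases 9 were DEGs lower and 1 was a DEG higher in NCI-H23 (17% and 14.2% of all genes). *NTRK3*, the receptor of neurotrophin-3, was at 46.7, 46 and 34.3 TPM in A549 against 0.999, 0.635 and 1.21 TPM in NCI-H23, without overlap (log2 fold change -5.24, adjusted p = 0.000102, limma). *MST1R* was lower by -5.52, the ephrin receptor gene *EPHB2* by -4.59 and *ROR1*, a Wnt5a receptor, by -3.82. Its paralog *ROR2* was the one higher in NCI-H23, by 3.20, from 0.406, 0.327 and 0.884 TPM to 3.54, 4.88 and 6.9 TPM. *EPHA2*, *DDR1* and *MET*, the non-DEGs of highest level, had 0.10, 0.00 and -0.82.

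Of 16 genes of MHC class I presentation 6 were DEGs higher and 1 was a DEG lower in NCI-H23 (14.2% and 17% of all genes). *HLA-B* was at 3.67, 2.26 and 0.519 TPM in A549 against 65.5, 88.1 and 86.2 TPM in NCI-H23. It was higher in every NCI-H23 library (log2 fold change 5.61, adjusted p = 0.00124, limma), and *HLA-C* by 3.03. The *HLA* genes are polymorphic and alike, and alleles that differ from the annotation can lose reads, so that levels of lines of unlike genotype are uncertain. The immunoproteasome subunit gene *PSMB9* was higher by 2.16 and the peptide transporter gene *TAP2* by 2.13, *B2M*, the shared light chain, had 0.13 and was no DEG, and *NLRC5*, a transactivator of the class I genes, was lower by -2.99.

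Cytokine genes differed in both directions. Of 15 tested cytokines and chemokines 3 were DEGs higher and 7 DEGs lower in NCI-H23 (14.2% and 17% of all genes). *CCL20*, the ligand of CCR6, was at 0.335, 0.239 and 0 TPM in A549 against 20.4, 26.1 and 29.4 TPM in NCI-H23 (log2 fold change 6.73, adjusted p = 0.000325, limma), and the CXCR2 ligands *CXCL1* and *CXCL2* were higher by 2.49 (1.49 without the third A549 library) and 3.11. *CXCL5*, a ligand of the same receptor, was lower, at 72.4, 89.7 and 52.7 TPM against 0.0293, 0 and 0 TPM. None of these overlapped between the lines, and *CSF1*, *IL32* and *IL11* were lower by -3.89, -3.87 and -2.87. Of 18 tested genes of plasma proteins 12 were DEGs lower and 4 DEGs higher (17% and 14.2% of all genes), with a median of -2.71. *FGA*, a fibrinogen chain, was at 4.16, 4.18 and 2.79 TPM in A549 and listed at 0 in NCI-H23. *TFPI2*, a protease inhibitor of the matrix, was at 95.6, 121 and 83.7 TPM against 370, 405 and 431 TPM, higher in every NCI-H23 library by 2.15, and *SERPING1* and *APOE* were higher by 4.35 and 1.80.

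Cancer-testis antigens, whose genes are silent in most somatic tissues, were detected in both lines. Of 26 listed 25 were in the tables, 6 were tested and 4 were DEGs, all higher in NCI-H23 (14.2% of all genes were). *MAGEA4* was listed at 0 in all A549 libraries and was at 209, 258 and 235 TPM in NCI-H23. *MAGEA3* was higher by 3.59, *XAGE1B* by 2.84 and *XAGE1A* by 2.60, while *MAGEA6* (0.02) and *PRAME* (-0.76) were no DEGs. Since copies within these families share reads, the sums are given too. The *MAGEA* genes summed to 45.8 ± 2.64 TPM in A549 against 337 ± 33.9 TPM in NCI-H23, and the *XAGE1* genes to 243 ± 72.4 and 1320 ± 166 TPM (SD, n = 3).

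Of 20 tested SWI/SNF subunits 1 was a DEG lower and 2 were DEGs higher in NCI-H23 (15% in either direction against 31.2% of all genes). *SMARCA2* (BRM), one of the alternative ATPases, was at 34.9, 38 and 39.7 TPM in A549 against 2.98, 3.31 and 1.92 TPM in NCI-H23, lower in every library with a log2 fold change of -3.63 (SE 0.243, adjusted p = 0.000124, limma). *SMARCA4* (BRG1), the other ATPase, was at 8.19, 6.42 and 23.2 TPM against 9.56, 12.4 and 11.2 TPM, with overlap (log2 fold change 0.18, adjusted p = 0.743, limma), and without the third A549 library it stood at 0.62 (adjusted p = 0.0266, limma). *SMARCB1* and *ACTL6A* were higher by 1.02 and 1.05, and without the third A549 library they stood at 0.61 and 0.71 and neither was a DEG.

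**Figure D4:**
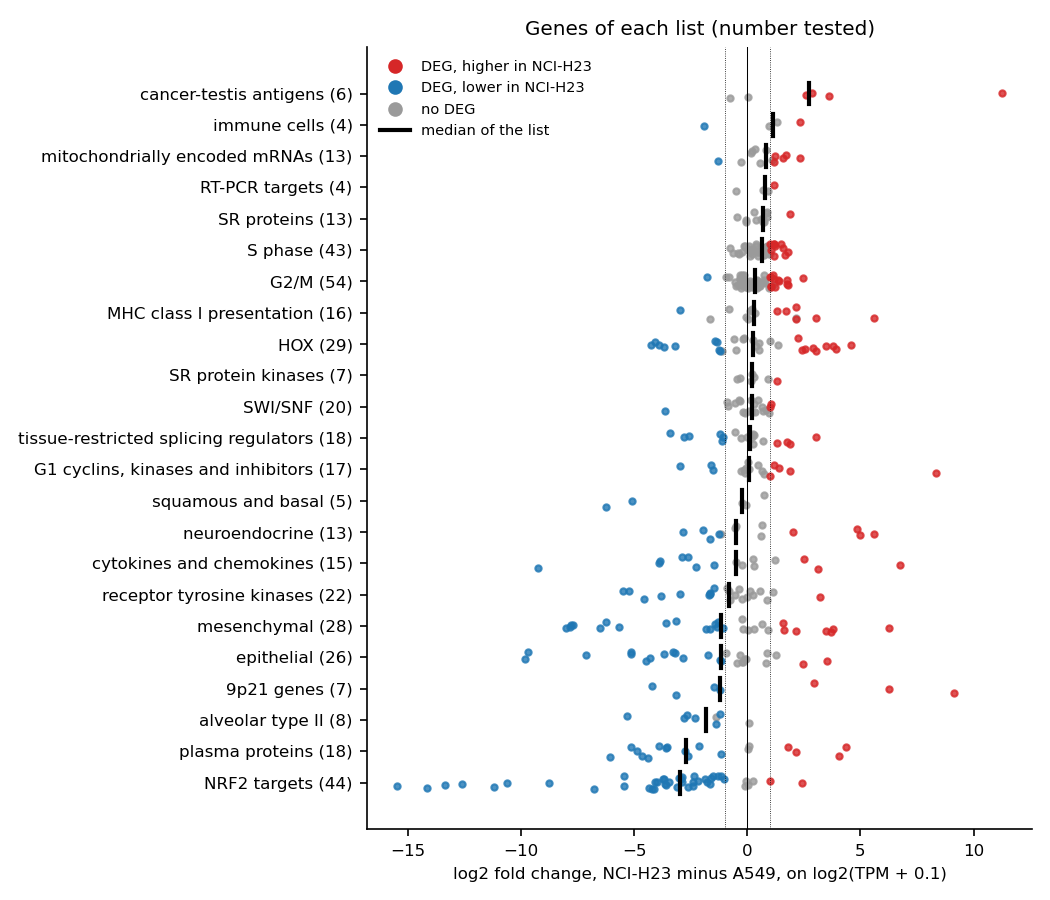
Log2 fold change (NCI-H23 minus A549, horizontal axis) of the tested genes of each list, with the number tested beside its name, DEGs in red (higher) and blue (lower), other genes in grey, the median as a bar and dotted lines at the fold threshold. The NRF2 list has a median of -2.98, plasma proteins and alveolar type II genes of -2.71 and -1.85, and SR proteins and S phase genes of 0.68 and 0.64, while points of genes listed at 0 in a line depend on the pseudocount.

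Outside the lists, the 12 largest differences in each direction among DEGs of at least 10 TPM were taken. Higher in NCI-H23 with a listing at 0 in all A549 libraries were *MAGEA4*, *CDKN2A*, *MT1E* (112, 157 and 143 TPM in NCI-H23), a metallothionein, and *NPTX2* (22, 25.9 and 23.6 TPM), a secreted pentraxin. The neurotensin receptor gene *NTSR1* was at 0.0577, 0.0907 and 0 TPM in A549 against 98.3, 94.2 and 96.2 TPM in NCI-H23 (log2 fold change 9.44), and *MME*, the membrane peptidase CD10, at 0.173, 0.139 and 0 TPM against 125, 113 and 118 TPM (9.36). Both were near 0 in every A549 library. *FTCD*, an enzyme of histidine catabolism, was higher by 8.49, *CRH* by 7.96 and *VWA5A* by 8.10. *ATAD3B*, a mitochondrial ATPase with near-identical neighbours, was at 0.834, 0.65 and 0.0409 TPM against 134, 145 and 120 TPM. The 3 *ATAD3* genes together had 44.4 ± 6.02 TPM in A549 against 206 ± 10.2 TPM in NCI-H23 (SD, n = 3), a smaller difference than that of *ATAD3B* alone.

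Besides the NRF2 targets and *ELF3*, the 12 largest differences in the other direction were *KRT81*, a hair keratin, at 977, 1090 and 483 TPM in A549 against 0, 0 and 0.0558 TPM in NCI-H23, *GPX1*, the cytosolic glutathione peroxidase, at 269, 292 and 153 TPM against 0, 0 and 0.245 TPM, and 3 genes listed at 0 in NCI-H23. These were *CPLX2*, a complexin of synaptic vesicles (343, 288 and 521 TPM in A549), *FXYD2*, a subunit of the sodium pump of kidney (128, 144 and 98.7 TPM), and *HAVCR1*, the kidney injury molecule (79.3, 84.7 and 165 TPM). No library of one line reached into the range of the other in any of them. Of all genes tested, 136 were listed at 0 in all A549 libraries and 126 in all NCI-H23 libraries, and 19 and 39 of these had at least 10 TPM in the other line. The DEGs of highest level were *FTL*, *FTH1* and *ALDH1A1* among those lower, and the ribosomal protein genes *RPS21*, *RPS18* and *RPS15* among those higher (log2 fold changes 1.84, 1.22 and 1.65), of which *RPS18* stood at 0.97 and was no DEG without the third A549 library. The 83 tested ribosomal protein genes had 14 DEGs higher and 6 lower (14.2% and 17% of all genes) with a median of 0.31, and their sum was 110000 ± 21800 TPM in A549 against 124000 ± 10700 TPM in NCI-H23 (SD, n = 3), with overlapping libraries.

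By chromosome, the median log2 fold change over the 13840 tested genes with a position (GENCODE v44) ranged from -0.67 on chromosome 15 to 0.61 on chromosome 18, against 0.03 for all. On chromosome 15, 73.3% of 460 genes were lower in NCI-H23, and 150 were DEGs lower against 30 higher. Chromosome 6 (702 genes) was the second from the top, with a median of 0.60, 28.9% of genes lower, 186 DEGs higher and 77 lower. Chromosome 1 (1407 genes) followed with 362 and 177. Of all genes tested 48.7% were lower in NCI-H23, 14.2% were DEGs higher and 17% DEGs lower. Around *TRA2B* on chromosome 3, the 52 tested genes within 5 Mb had a median of -0.55, in the direction of *TRA2B* itself, with quartiles of -0.99 and 0.19. Of these genes 2 were DEGs higher and 12 lower (14.2% and 17% of all genes). Around *TRA2A* on chromosome 7, the 44 tested genes had a median of 0.40, again in the direction of the gene, with quartiles of -0.59 and 1.4. Of these genes 12 were DEGs higher and 7 lower (14.2% and 17% of all genes). The median around *TRA2A* was 0.22 without the third A549 library and 0.27 with rescaling only. DNA copy number was not measured in these libraries, and the part of it in these medians was not tested. From DepMap data, the paper places NCI-H23 among the *TRA2A*-dependent lines with the lowest *TRA2B* copy number.

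**Figure D5:**
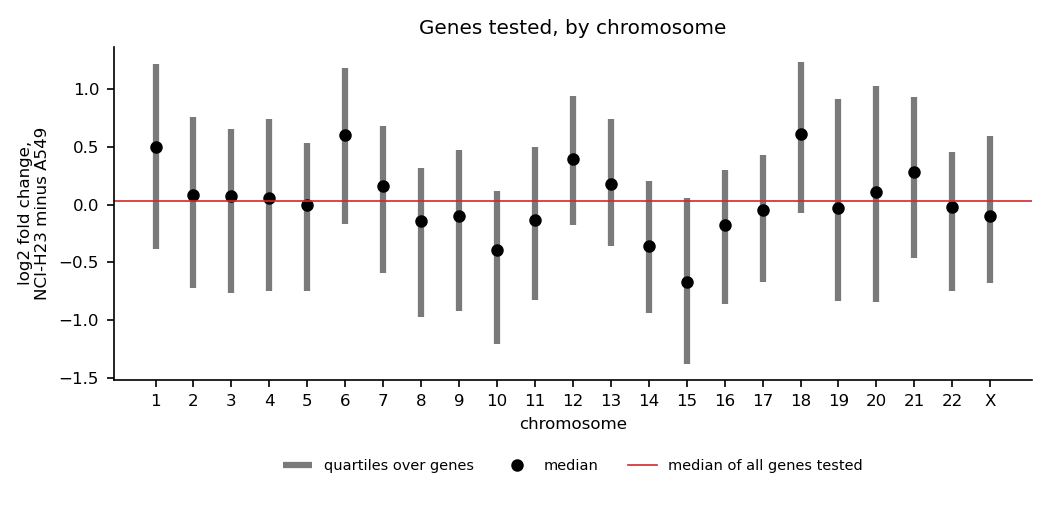
Median (point) and quartiles (grey bar) over genes of the log2 fold change, NCI-H23 minus A549, for the tested genes of each chromosome, with the median of all genes as a red line. Chromosomes 15 (-0.67) and 10 (-0.39) lie lowest and 18 (0.61) and 6 (0.60) highest, against 0.03 for all genes.

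The line difference was then read in the knockdown libraries of the same lines, which the comparison above did not use. Of the 2140 DEGs higher in NCI-H23 that could be tested between the *TRA2A* KD libraries of both lines, 1711 (80.0%) were DEGs in the same direction (background 15.5%), and of the 2584 lower ones 2197 (85%; background 17.9%). Between the *TRA2B* KD libraries these were 1834 of 2189 (83.8%; background 16.6%) and 2316 of 2641 (87.7%; background 19.2%), and between the *TRA2A/B* DKD libraries 1540 of 2147 (71.7%; background 16.4%) and 2094 of 2595 (80.7%; background 19.5%). Of all genes, 33.4% were DEGs between the *TRA2A* KD, 35.8% between the *TRA2B* KD and 35.9% between the *TRA2A/B* DKD libraries. The 9p21 and alveolar type II DEGs were called again in all 3 conditions without exception. This also held for lists with 4 or fewer DEGs, namely cancer-testis antigens, squamous and basal genes, immune genes, SR proteins, their kinases and the RT-PCR targets. Of the 40 NRF2 DEGs 31 were called again in all 3, and of the 14 G2/M DEGs 7. Lower shares were 3 of 10 for the tissue-restricted splicing regulators, 2 of 6 for mitochondrially encoded mRNAs and 1 of 3 for SWI/SNF. Over all DEGs that could be tested in the 3 conditions it was 3061 of 4590 (66.7%). Line, medium and table are joined in these libraries as well.

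Finally, the gene lists were set beside the glioma pair, which shares no library with the lung pair, as LN319 minus LN229. Of 14714 genes tested in both, 1928 were DEGs higher in NCI-H23 and 2351 DEGs higher in LN319, and 402 were both, which is 20.9% of the lung and 17.1% of the glioma genes (backgrounds 16.0% and 13.1%). Of the 2319 and 2414 lower ones 536 were shared, 23.1% and 22.2% (backgrounds 16.4% and 15.8%). DEGs of opposite direction were about as many, with 378 of the genes higher in NCI-H23 (19.6%; background 16.4%) and 591 of those lower (25.5%; background 16.0%). Of all genes tested in glioma, 19.2% were DEGs higher and 18.5% DEGs lower in LN319. The epithelial list, with 2 DEGs higher and 14 lower in lung, had 20 higher and 3 lower in glioma, and the *HOX* list, with 9 and 9 in lung, had 6 and 20. The mesenchymal list had 7 higher and 15 lower in lung and 5 higher and 17 lower in glioma, the NRF2 list 2 and 38 against 6 and 16, and the SR proteins 1 and 0 against 2 and 1. These counts were not tested against each other.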

How the data were processed

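RNA-seq of 6 control libraries was used, 3 of NCI-H23 Control KD and 3 of A549 Control KD, grouped by the labels. The authors deposited 1 table per cell line with gene-level TPM values, made per the paper with kallisto 0.48.0 on Gencode v34 (GRCh38), from directional poly-A libraries read in pairs. The tables hold older gene symbols, so the annotation release was not settled from the values. The submitters' processing notes also list STAR 2.7.3. The deposited TPM values are linear and carry no scaling across libraries, and depth is unknown from TPM.

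Tables were joined by gene name (55906 names, of which 2 were repeats and 28 had the form of a date, which were never named). Each library was rescaled to a sum of 1000000 (deposited sums 928908 to 954842). TPM is set within a library and not across a table, so values of both tables were tested together after this step. Genes that reached 1 TPM in 3 or more of the 6 libraries were kept, scaled by trimmed means of the log ratios without weights (30% and 5% trims), taken as log2(TPM + 0.1) and fitted with limma 3.58.1 (statmod 1.5.0, R 4.3.3), with a mean-variance trend and empirical Bayes moderation. All tests were two-sided, with Benjamini-Hochberg adjustment across the genes tested. A fold change on the log2(TPM + 0.1) scale understates the change of low genes, and none is given for a gene listed at 0 in all libraries of a line. A simulation of 3 against 3 libraries gave both groups the A549 means and independent noise, and changed 200 of 14429 genes 4-fold. Of these 77.5% were recovered, with 5 false calls. In the data 31.2% of genes were DEGs and the third A549 library stood apart, so the simulation gives no error rate for those calls.

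The members and the gene lists were chosen with earlier results of these data known, so counts over the lists are descriptions, set beside the share over all genes. Named were *TRA2A*, *TRA2B* and the RT-PCR targets, in each list up to 4 DEGs of largest fold change in each direction, up to 3 other genes of highest level and members near 0, the 12 DEGs of largest fold change in each direction with at least 10 TPM and no overlap, and the 3 DEGs of highest level in each direction. Genes outside this rule are marked as chosen after their values were seen, with some exceptions. Named outside it without such a mark were *ESRP1*, *NKX2-1*, *DCN*, *SMARCA4* and genes with a promoter match. Replicate numbers were not used as pairs in the main fit. Deviations of same-numbered libraries correlated at -0.0112, 0.0767 and -0.0601 and those of unlike numbers at -0.117 to 0.0837. Such values cannot show whether same-numbered libraries of different lines were handled together. Positions were read from GENCODE v44 for 35068 names (1378 by an older symbol), and promoters from RefSeq (GRCh38.p14). The lung and glioma differences were compared by an interaction term over all 4 lines. Alternatives were pseudocounts of 0.5 and 1, a filter of 5 TPM or none, rescaling alone, TPM as deposited, quantile normalization, removal of mitochondrially encoded genes, all 24 lung libraries in the fit, the replicate block, no minimum fold change and each library left out, the last also, added after the data were seen, with a filter in 2 libraries, as was the interaction without the third A549 library. Python 3.11.15, pandas 2.3.3, numpy 2.4.6 and matplotlib 3.10.9 were used. Columns of the knockdown libraries entered only where stated, and splicing was not analysed here. Some genes, a gene list and a guide are not reported here.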

Additional observations from a re-analysis of the deposited data

Results flagged for a closer look

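For 5 genes the line difference in lung (NCI-H23 minus A549) and in glioma (LN319 minus LN229) differed by limma's interaction term on the adjusted p, with a positive value where lung was the higher. All values here are from 1 fit of the 4 lines, which are scaled together in it, so the lung and glioma values differ slightly from those of each pair alone. The difference was 0.81 for *TRA2A* (SE 0.125, adjusted p = 0.000286; 0.68 in lung and -0.13 in glioma), and 1.06 for *TRA2B* (SE 0.159, adjusted p = 0.000236; -0.38 and -1.44). With rescaling alone these were 0.51 and 0.75, and both kept an adjusted p under 0.05. Among the RT-PCR targets it was 0.78 for *CEP192* (SE 0.276, adjusted p = 0.0345; 1.26 and 0.48), 0.72 for *CNTRL* (SE 0.225, adjusted p = 0.0199; 0.77 and 0.05) and -1.93 for *OFD1* (SE 0.37, adjusted p = 0.00125; -0.43 and 1.5). Without the third A549 library, an alternative chosen after the data were seen, the differences were 0.67, 0.88, 1.00, 0.85 and -1.62 in the same order, each with an adjusted p under 0.05. Over all genes 52.5% passed this test on the adjusted p, and 42.7% with an absolute difference above 1 as well. The pairs also differ in tissue, Cas9 and day of collection, which cannot be told apart from it. The test for single outlying values was not run, as it does not cover groups of 3 libraries.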

How the results depend on the processing

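The 4956 DEGs stayed within 1.5 times that number under every alternative. Those higher in NCI-H23 (2254) did not. They numbered 3568 without a minimum fold change, 2004 to 2231 with 1 A549 library left out and 1377 to 1467 with 1 NCI-H23 library left out. In the last case a gene of NCI-H23 alone cannot reach 3 libraries, and the filter in 2 libraries gave 1821 to 1989 there. With that filter and any 1 library left out, all DEGs ranged from 4276 to 5515. With the replicate number as a block there were 4650 DEGs (2090 higher and 2560 lower), which does not settle whether same-numbered libraries belong together. Rescaling alone gave 1899 higher and 2979 lower, and quantile normalization 2583 and 2535. Of 254 DEGs named or held by a list, 210 kept their call under all 22 alternatives that gave a value for them, and of 10176 values 0 turned direction past the threshold, 521 lost and 201 gained an adjusted p under 0.05. With 1 library left out and the filter in 2 libraries, 42 of the DEGs lost their call in at least 1 of 6 fits. Among those named here were *SRSF5* (adjusted p up to 0.0877), *CLK2* (0.0625), *UBE2C* (0.0841), *UCHL1* (0.0832), *CBR1* (0.0823), *LUM* (0.116), *CXCL1* (0.135), *ACTL6A* (0.111), *SMARCB1* (0.13), *MT-ND3* (0.067) and *MT-ND4L* (0.193, limma), while *NFE2L2* and *RPS18* fell short of the fold threshold alone. TPM holds no depth, so the reads behind a low value are unknown.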

Other observations

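Mitochondrially encoded mRNAs did not move as 1 block. Of 13, all tested, 5 were DEGs higher and 1 was a DEG lower in NCI-H23 (14.2% and 17% of all genes), with a median of 0.81. *MT-ND3*, a subunit of complex I, was at 12500, 11600 and 5780 TPM in A549 against 49300, 40400 and 40400 TPM in NCI-H23, higher in every NCI-H23 library (log2 fold change 2.33, adjusted p = 0.0159, limma). *MT-ND4L*, another subunit of complex I, was lower, at 26800, 23000 and 26900 TPM against 12500, 7700 and 8430 TPM (log2 fold change -1.32, adjusted p = 0.0438, limma). With the mitochondrially encoded genes removed and libraries only rescaled, 2353 other genes were DEGs higher and 2666 lower. Rescaling alone with these genes kept gave 1899 and 2979.

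The 6 tested metallothionein genes (*MT1* genes and *MT2A*), which encode metal-binding proteins, had 5 DEGs, all higher in NCI-H23, whereas the sum of the 10 genes in the tables was 773 ± 337 TPM in A549 against 1130 ± 224 TPM in NCI-H23 (SD, n = 3), with overlapping libraries. They were chosen after *MT1E* had been seen, and reads can be split between these near-identical genes.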
